A study of Mus musculus with 24 samples.

Results

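The comparison is of CD69+ with CD69- cells among CD27+ natural killer (NK) cells, measured by RNA-seq in 12 of the 24 libraries of the series, 6 libraries of CD27+CD69+ cells and 6 of CD27+CD69- cells. Libraries were chosen by their titles, with no measured value. All cells were sorted from day 14 flank tumours of the mouse melanoma line B16F10 in female wild-type B6 mice, 100 cells for each library. The other 12 libraries, 6 of CD11b+CD69+ and 6 of CD11b+CD69- cells from the same kind of tumour, serve here to mark which genes NK cells of these tumours express, and for a test of whether the CD69 difference was the same in both compartments. No treatment, allele or transgene is given for any of the 4 populations. The labels name the cell type Melanoma, whereas the design describes NK cells, and the NK genes below bear on this. No source says that the 6 libraries of a population came from separate animals, and p-values therefore rest on a spread between libraries that may be technical.

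NK cells are innate lymphocytes that kill tumour cells with perforin and granzymes and secrete cytokines. In mice they mature from CD27+ cells towards CD11b+ cells, losing CD27, a member of the TNF receptor family, as they gain CD11b, an integrin chain. CD69 is a surface lectin that appears soon after activation and holds lymphocytes in tissue by removing the egress receptor S1PR1 from the surface. IL-2 and IL-15 share the receptor chains IL-2Rβ and γc and signal through JAK kinases and STAT5.

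Total counts were between 1823628 and 2427734 in CD27+CD69+ libraries and between 1213914 and 2242850 in CD27+CD69- libraries. Ncr1, which encodes the NK receptor NKp46, was high in every CD27+ library, with 1203 CPM or more in CD27+CD69+ and 1063 CPM or more in CD27+CD69- libraries. CPM is the count of a gene relative to the TMM-scaled size of its library. RNA of other tumour cells separated the populations. The summed level of 14 fibroblast markers was 0 CPM in 4 of 6 CD27+CD69+ libraries and reached 310 CPM, while CD27+CD69- libraries held between 680 and 14568 CPM. Of the 14 markers, 8 were at 0 counts in all CD27+CD69+ libraries, among them Col1a1, Dcn and Pdgfra. Melanoma markers summed to between 0.454 and 1063 CPM in CD27+CD69+ and between 17.5 and 11434 CPM in CD27+CD69- libraries (adjusted p = 0.187, exact permutation test, 19 sums and measures). Macrophage and monocyte markers summed to between 350.4 and 741 CPM in CD27+CD69+ and between 456 and 2507 CPM in CD27+CD69- libraries (adjusted p = 0.0411, same test), and most of that sum was Ctsb. T cell markers summed to between 2405 and 3867 CPM in CD27+CD69+ and between 1259 and 2981 CPM in CD27+CD69- libraries (adjusted p = 0.0823), with Foxp3 at 0 counts in both, and none of its 10 tested genes was called (edgeR; 2 had an unadjusted p under 0.05). Adipocyte markers were at 0 in CD27+CD69+ libraries and summed to between 2.71 and 144 CPM in CD27+CD69- libraries (adjusted p = 0.0103, exact permutation test). Erythroid markers summed to 3387 CPM in CD27+CD69+ replicate 3 and to at most 3.31 CPM in the others of that population. In CD27+CD69- replicate 4 they summed to 283 CPM, with 0 in the others (adjusted p = 0.559, same test). CD27+CD69- replicate 6 had the fewest counts and the highest melanoma marker sum. Its macrophage and monocyte marker sum was also the highest, but Ctsb alone made up 2204 of the 2507 CPM. The markers Mrc1, C1qb and C1qc were at 0 counts in CD27+CD69- libraries, and Fcgr1, Csf1r, Mrc1 and C1qa in CD27+CD69+ libraries. The sum therefore does not identify macrophages. CD27+CD69- replicate 5 had the least fibroblast RNA of its population.

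**Figure D1:**
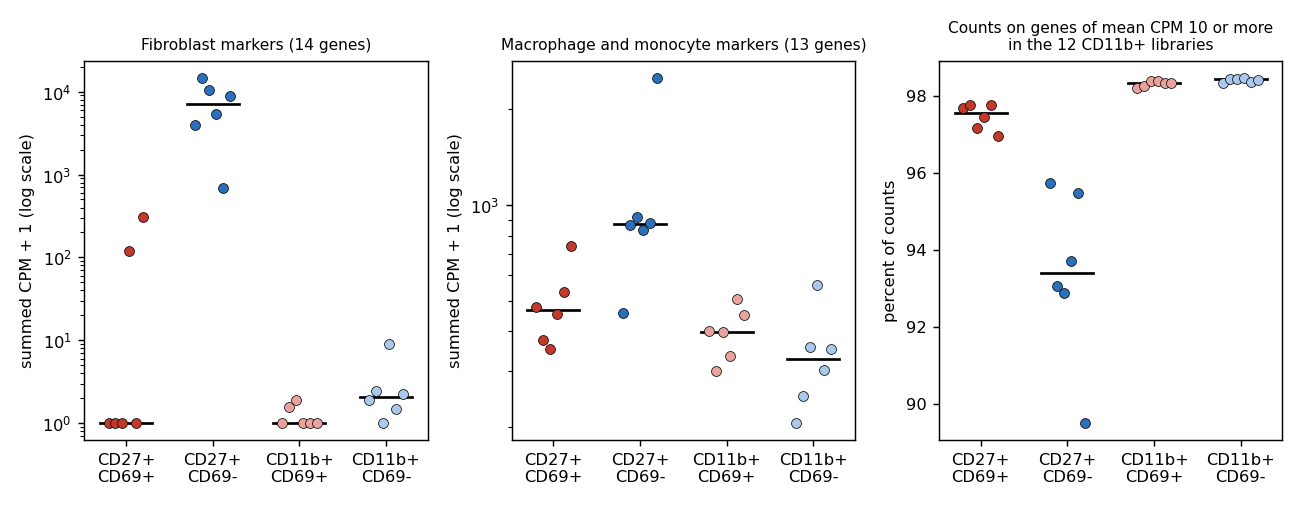
Each point is 1 library and each bar a median; the panels give the summed CPM of fibroblast and of macrophage and monocyte markers on log axes, and the percent of counts that fell on genes of mean CPM 10 or more in the CD11b+ libraries. The CD27+CD69- libraries stand apart from the other 3 populations in the fibroblast and percent panels.

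The share of counts on genes with a mean of 10 CPM or more in the 12 CD11b+ libraries, called the CD11b-expressed genes below, ran from 96.9% to 97.8% in CD27+CD69+ libraries and from 89.5% to 95.7% in CD27+CD69- libraries. The ranges did not overlap (p = 0.0022, two-sided exact permutation test, the smallest value that 6 against 6 libraries can give; adjusted p = 0.0103). CD27+CD69+ libraries also had fewer genes with counts, 12371 to 13138, than CD27+CD69- libraries, with 13287 to 14540 (adjusted p = 0.0103, same test). In bulk libraries, fewer cells of a type and less RNA per cell cannot be told apart.

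Promoters of 3 genes that were higher in CD27+CD69+ cells are shown because they hold the letters of the sites through which STAT5 and interferon factors are known to act. Cish encodes an inhibitor of cytokine receptors that STAT5 induces, H2-T23 encodes the MHC class I molecule Qa-1, and Psmb8 encodes an immunoproteasome subunit. The windows, from RefSeq on GRCm38.p6, run from 250 bases before the annotated start to 50 after it, 5′ to 3′ on the strand of the gene. They are chr9:107296409-107296708 on the plus strand for Cish, chr17:36032652-36032951 on the minus strand for H2-T23 and chr17:34197945-34198244 on the plus strand for Psmb8. Capitals mark the GAS letters TTCNNNGAA in Cish and Psmb8 and the ISRE core in H2-T23, which is TTTC, any pair of bases and TTTC. Both strands were searched, and matches of the motifs may overlap.
Cish: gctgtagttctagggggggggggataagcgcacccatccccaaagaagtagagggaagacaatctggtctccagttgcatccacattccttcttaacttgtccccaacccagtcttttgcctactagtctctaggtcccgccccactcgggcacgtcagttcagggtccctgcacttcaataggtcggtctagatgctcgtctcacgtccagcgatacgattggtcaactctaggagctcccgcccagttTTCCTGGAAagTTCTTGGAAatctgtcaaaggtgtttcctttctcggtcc
H2-T23: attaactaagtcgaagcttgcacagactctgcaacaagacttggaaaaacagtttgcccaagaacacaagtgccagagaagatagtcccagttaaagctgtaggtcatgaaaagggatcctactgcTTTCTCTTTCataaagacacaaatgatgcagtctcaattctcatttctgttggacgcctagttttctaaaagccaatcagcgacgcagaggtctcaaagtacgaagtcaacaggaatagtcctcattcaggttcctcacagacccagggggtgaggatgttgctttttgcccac
Psmb8: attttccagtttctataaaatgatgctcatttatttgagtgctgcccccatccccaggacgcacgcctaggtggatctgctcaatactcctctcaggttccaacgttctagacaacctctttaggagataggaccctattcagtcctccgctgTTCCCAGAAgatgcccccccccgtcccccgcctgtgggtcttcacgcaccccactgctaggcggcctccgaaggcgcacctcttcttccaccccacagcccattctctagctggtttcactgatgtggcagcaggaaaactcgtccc
Cish held 2 GAS matches, which start at positions 251 and 262 of the window. The GAS letters were in 9.55% of the windows of all 27025 genes with one, in 17.4% (8 of 46) of those of CD11b-expressed genes called higher in CD27+CD69+ cells and in 17.5% (7 of 40) of those called lower. The ISRE core was in 3.99% of all windows, in 15.2% (7 of 46) of those called higher and in 10.0% (4 of 40) of those called lower. These matches are letters in a window and no measure of binding.

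CD27+CD69+ libraries had more RNA of 6 of 16 MHC class I and peptide loading genes and of the granule genes Gzmc and Cst7. Xcl1, a chemokine, and Ms4a4c, a surface protein, were also higher. These libraries had less RNA for granzyme A, the chemokine Ccl3 and Rasgrp2, and far less RNA of fibroblast and matrix genes. Fibroblast marker sums reached at most 0.912 CPM in CD11b+CD69+ and 8.02 CPM in CD11b+CD69- libraries. Which cells held the fibroblast and matrix RNA was not tested. Of 10536 genes tested, 195 (1.85%) were called at an adjusted p under 0.05 by edgeR's quasi-likelihood test, 58 (0.55%) higher and 137 (1.3%) lower. All 58 that rose were CD11b-expressed genes. Among the 7978 CD11b-expressed genes tested, 107 (1.34%) were called, 58 (0.727%) higher and 49 (0.614%) lower. Among the 2558 other genes, 88 (3.44%) were called, all lower, and 280 had an unadjusted p under 0.05 in either direction. Over all genes tested 1154 (11%) had an unadjusted p under 0.05, the share to set beside such counts of a list. Populations without overlap are the second measure used below. Over all genes tested 222 (2.11%) had none, 77 (0.731%) with CD27+CD69+ above and 145 (1.38%) with it below, and among CD11b-expressed genes 111 (1.39%) had none, 72 (0.902%) above and 39 (0.489%) below. Of the 58 rises 32 had no overlap, as had 17 of the 49 falls. Rises were mostly small: 48 of 58 were under 1 on the log2 scale and the median rise was 0.67, while the median of the 49 falls was -1.195. Over all genes tested the median log2 difference was -0.012.

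Those counts moved with single libraries. Without CD27+CD69- replicate 6 the test called 121 genes, without CD27+CD69- replicate 5 it called 319, and without CD27+CD69+ replicate 6 it called 393. Among CD11b-expressed genes, 62 were called without CD27+CD69- replicate 6. Leaving out CD27+CD69- replicates 4 and 6, the libraries with the fewest counts, an alternative chosen after seeing the data, left 98 genes and 44 CD11b-expressed genes, 21 higher and 23 lower. With the level of fibroblast RNA as a covariate, also chosen after seeing the data, no gene was called and 374 had an unadjusted p under 0.05. That level and the population cannot be told apart. Each CD27+CD69- library was below all 6 CD27+CD69+ libraries in 49 to 57 of the 58 rises and above all of them in 34 to 44 of the 49 falls. Since these libraries made the calls, the counts are a description.

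Other fits were set against 62 of the called genes described here, without Gpx3, and ended some of their calls. A gene with no value in a fit was not counted as ended. The fit to the 2 populations alone ended 19: Il2rg, Ctsw, Ctsb, H2-K1, Psmb9, Nlrc5, Klra9, Klra7, Cd96, Lcp2, Cish, Myc, Ms4a4b, Trim30a, Emilin2, Nr4a1, Egr1, Phactr3 and Sparc. Leaving out CD27+CD69- replicates 4 and 6 ended 23, among them Ctss, Psmb9, Nlrc5, Klra9, Slamf7, Xcl1, Tnfrsf9, Tnfrsf1a, Ms4a4b, Actr2, Spin2c and Gimap7. Limma-voom ended 11: Gzmc, Nlrc5, Cish, Emilin2, Nr4a1, Egr1, Col1a2, Col3a1, Fstl1, Sparc and Adgrd1. DESeq2 ended the call of Sparc alone.

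**Figure D2:**
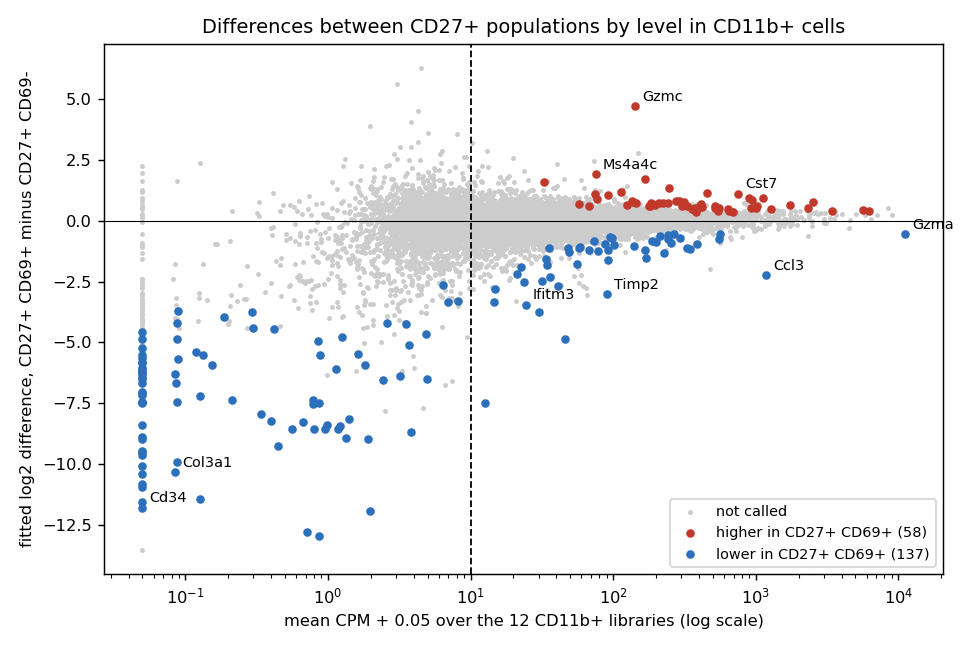
Each point is 1 of the 10536 genes tested, placed by its mean CPM over the 12 CD11b+ libraries (log axis) and by its log2 difference, CD27+CD69+ minus CD27+CD69-; red genes were called higher, blue ones lower, and the dashed line marks 10 CPM. All 58 red points lie to its right and 88 of the 137 blue points to its left; fitted values of genes at 0 counts depend on the prior count and are not sizes.

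The falls outside the CD11b-expressed genes included 7 of the 8 fibroblast markers tested, of 14 in the list. Of the 88 falls, 30 had 0 counts in all 6 CD27+CD69+ libraries and 65 had no overlap between the populations, where 4.14% of the 2558 genes had none in this direction and 4.34% in either. Genes near 0 in the other populations pass the filter on low counts mainly through CD27+CD69- libraries, which largely sets their direction beforehand. These counts are therefore a description. Col1a2, a collagen I chain, had 0 counts in CD27+CD69+ and 4886 counts in CD27+CD69- libraries. Summed over each population it was at least 1817-fold lower when 3 counts over the population are taken as the floor. Gpx3, a secreted glutathione peroxidase, was at least 2071-fold lower, with 0 and 5569 counts in CD27+CD69+ and CD27+CD69- libraries. Col1a2 and Gpx3 were each detected in 5 of 6 CD27+CD69- libraries. Their groups therefore overlapped at 0, and the folds do not hold for each library. The call of Col1a2 was lost without the libraries of all populations numbered 1, 2 or 3. Cd34, a sialomucin of vessel and stromal cells, was at 0 CPM in CD27+CD69+ libraries, against 57.8 to 388 CPM in CD27+CD69- libraries, and Mmp2, a gelatinase, was at 0 against 31.7 to 308 CPM. Sparc, a matrix-binding glycoprotein, was at 0 CPM in 4 of 6 CD27+CD69+ libraries with a highest value of 226 CPM, and ran from 258 to 2807 CPM in CD27+CD69- libraries. Its call was lost without CD27+CD69- replicate 2, 4 or 6 or CD27+CD69+ replicate 4 (adjusted p = 0.0534, 0.0526, 0.0593 and 0.0607). Col3a1 was at 0 in CD27+CD69- replicate 5, while the other 5 libraries of that population reached 2645 CPM, so its groups overlapped at 0. Tgfbr3, the TGF-β co-receptor betaglycan, had 0 and 236 counts in CD27+CD69+ and CD27+CD69- libraries, at least 87.8-fold lower, and was the only 1 of 14 TGF-β signalling genes called.

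Of the markers of the sort, none was called. Cd69 had 1061 to 1417 CPM in CD27+CD69+ libraries (median 1128), against 380 to 917 CPM in CD27+CD69- libraries (median 759). Every CD27+CD69+ library was above every CD27+CD69- library, yet the log2 difference of 0.67 (SE 0.20) missed the threshold (adjusted p = 0.0907). It passed in DESeq2 and limma-voom (0.0398 and 0.0414). Cd27 had 296 to 375 CPM in CD27+CD69+ and 179 to 355 CPM in CD27+CD69- libraries (adjusted p = 0.745). Itgam, which encodes CD11b, had 0 to 13.7 CPM in CD27+CD69+ and 2.46 to 19.8 CPM in CD27+CD69- libraries (adjusted p = 0.29). Klrb1c, which encodes NK1.1, had medians of 983 and 974 CPM in CD27+CD69+ and CD27+CD69- libraries. Ncr1 differed by 0.31 (SE 0.10, adjusted p = 0.142) and passed only without CD27+CD69+ replicate 3 (adjusted p = 0.0422).

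**Figure D3:**
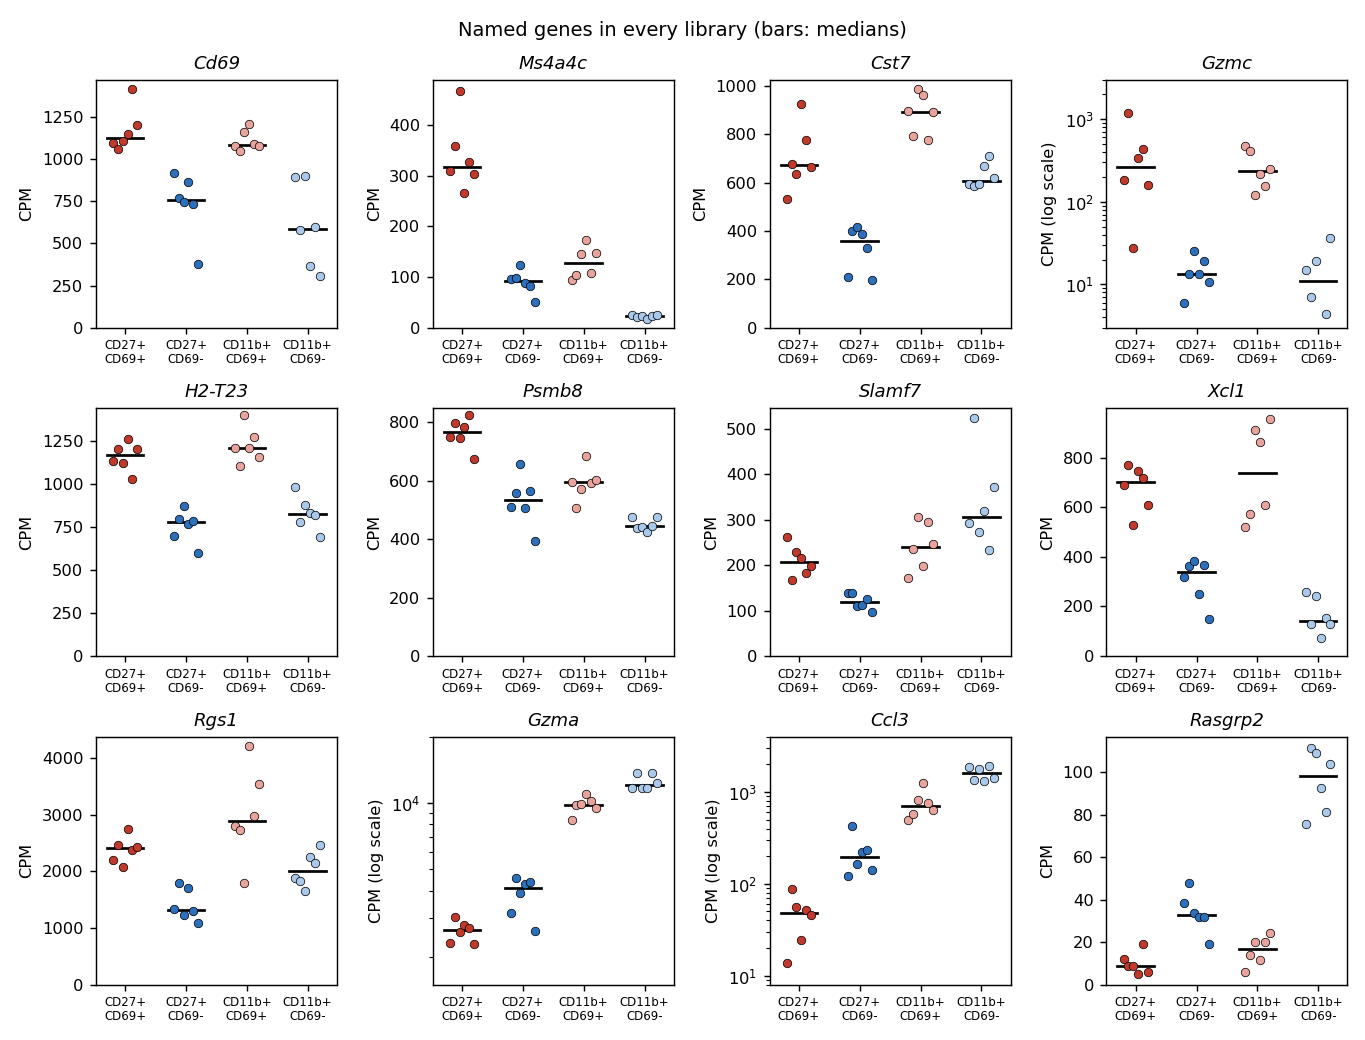
Each point is 1 library, with CPM on the vertical axis (log axes for Gzmc, Gzma and Ccl3) and the median of each population as a bar, for 12 named genes in the 4 populations. The 6 CD27+CD69+ libraries lie above all 6 CD27+CD69- libraries for Cd69, Ms4a4c, Cst7, Gzmc, H2-T23, Psmb8, Slamf7, Xcl1 and Rgs1, and below all of them for Ccl3.

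Granule genes changed in both directions. Gzmc, a granzyme of strongly activated killer cells, had 27.9 to 1172 CPM in CD27+CD69+ libraries (median 261), against 5.92 to 25.05 CPM in CD27+CD69- libraries (median 13.4). It showed the largest rise of the 58, 4.70 on the log2 scale (SE 0.77, adjusted p = 0.00107), with a wide spread among the CD27+CD69+ libraries. Limma-voom did not call it (adjusted p = 0.276). Gzma, the main granzyme of resting mature NK cells, had 2282 to 3040 CPM in CD27+CD69+ and 2623 to 4564 CPM in CD27+CD69- libraries and fell by 0.55 (SE 0.11, adjusted p = 0.00337). Only CD27+CD69- replicate 6 overlapped the other population. Of 16 granzyme and lytic granule genes tested, these were the only 2 called, 1 in each direction, and the median difference of the list was 0.08.

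Cathepsins and their inhibitors split by gene. Cst7 encodes cystatin F, which controls the cathepsins that activate granzymes. It had 533 to 927 CPM in CD27+CD69+ libraries and 196 to 417 CPM in CD27+CD69- libraries, and rose by 1.12 (SE 0.15, adjusted p = 8.29e-05). Ctsw, a cathepsin of cytotoxic lymphocytes, had medians of 2602 and 1901 CPM in CD27+CD69+ and CD27+CD69- libraries and rose by 0.52 (SE 0.11, adjusted p = 0.00793). It was not called when only the 2 populations entered the fit (adjusted p = 0.0579). Ctss, a cathepsin of antigen processing, rose by 0.67 (SE 0.14, adjusted p = 0.00743), but not without CD27+CD69- replicates 4 and 6 (adjusted p = 0.0575). Serpina3g, a serpin that inhibits cathepsins and is induced by interferon, had 1424 to 1993 CPM in CD27+CD69+ and 481 to 1156 CPM in CD27+CD69- libraries, a rise of 0.95 (SE 0.18, adjusted p = 0.00273). Ctsl, a lysosomal protease found in many cell types, had 7.62 to 100.2 CPM in CD27+CD69+ libraries, against 151 to 604 CPM in CD27+CD69- libraries, and fell by 3.33. With the fibroblast covariate its difference was -1.02. Ctsb fell by 1.11 (adjusted p = 0.0341), and was at 2204 CPM in CD27+CD69- replicate 6. Its call was lost without that library (adjusted p = 0.137) and without CD27+CD69+ replicate 1, 2, 3 or 4 (0.0563, 0.0711, 0.0691 and 0.0617). Serpinb6a, an intracellular serpin, fell by 1.28 (adjusted p = 0.0151) and did not pass without CD27+CD69- replicate 3 (adjusted p = 0.059). Of 18 genes of this list, 4 rose and 3 fell.

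MHC class I and peptide loading genes gave the most calls in 1 direction of any NK cell list. Of 16 tested, 6 rose and none fell, 15 had a positive difference, and the median was 0.46, against 0.012 over the CD11b-expressed genes. The 22 NK cell identity genes tested had 18 positive differences and a median of 0.27, with 2 rises and no fall. Of them 13 had an unadjusted p under 0.05 (edgeR). Whether class I genes moved beyond NK cell genes in general was not tested. H2-T23, which presents leader peptides of other class I molecules to NKG2A, had 1026 to 1260 CPM in CD27+CD69+ libraries (median 1164) and 596 to 870 CPM in CD27+CD69- libraries (median 775). The groups did not overlap and the rise was 0.62 (SE 0.09, adjusted p = 0.000218). H2-Q7, a Qa-2 class I gene, had 1692 to 2283 CPM in CD27+CD69+ and 811 to 1520 CPM in CD27+CD69- libraries, a rise of 0.67 (SE 0.11, adjusted p = 0.000738). H2-K1, the classical K molecule, rose by 0.44 (SE 0.09, adjusted p = 0.00766). In the fit to the 2 populations alone, H2-K1, Psmb9 and Nlrc5 were not called (adjusted p = 0.097, 0.0888 and 0.0983), which left 3 of the 6 rises, and H2-K1 was also lost without the libraries of all populations numbered 3 or 4 (0.0652 and 0.0729). Near-identical class I genes share reads, so the split between them is uncertain.

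Psmb8 and Psmb9, subunits of the immunoproteasome, which cuts proteins into class I peptides, also rose. Psmb8 had 673 to 827 CPM in CD27+CD69+ libraries and 393 to 658 CPM in CD27+CD69- libraries, a rise of 0.52 (SE 0.10, adjusted p = 0.00239) with no overlap. Psmb9 had 512 to 636 CPM in CD27+CD69+ and 309 to 530 CPM in CD27+CD69- libraries and rose by 0.50 (SE 0.11, adjusted p = 0.00958). Its exons overlap those of Tap1, and the counting of such reads is not stated. Nlrc5, the transactivator of class I genes, rose by 0.89 (SE 0.24) at an adjusted p of 0.0497, and was lost when any of 9 of the 12 CD27+ libraries was left out (adjusted p up to 0.123). B2m, the light chain of class I, had 5775 to 6928 CPM in CD27+CD69+ and 3802 to 5634 CPM in CD27+CD69- libraries. These groups did not overlap, but the difference of 0.29 missed the threshold (adjusted p = 0.0546) and passed in limma-voom (0.0119) and without CD27+CD69- replicate 2 or 6 or CD27+CD69+ replicate 1 or 3 (0.0498, 0.0331, 0.0468 and 0.0437). H2-D1 differed by 0.25 (adjusted p = 0.102), which passed in limma-voom (0.048), without CD27+CD69- replicate 1 (0.00806) and without the libraries of all populations numbered 1 (0.0185).

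NK receptor lists had positive medians with few calls. Of 10 Ly49 genes, the lectin-like receptors for class I, 2 rose, 9 were positive and the median was 0.71. Klra9, which encodes Ly49I, had 261 to 501 CPM in CD27+CD69+ and 80.8 to 316 CPM in CD27+CD69- libraries and rose by 0.94 (SE 0.21, adjusted p = 0.0139). Klra7, which encodes Ly49G, rose by 0.51 (adjusted p = 0.0377) and was lost when any of 6 single libraries was left out (adjusted p up to 0.0877). Klra8, which encodes the activating receptor Ly49H, had medians of 527 and 311 CPM in CD27+CD69+ and CD27+CD69- libraries, a difference of 0.72 that missed the threshold (adjusted p = 0.0578). It passed in DESeq2 (0.0217), without CD27+CD69- replicate 4 or 5 (0.0405 and 0.0214) or CD27+CD69+ replicate 1 or 2 (0.0364 and 0.0298). Ly49 genes are close paralogs, and reads shared between them cannot be assigned with certainty.

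Slamf7, a self-binding SLAM receptor that activates NK cells, had 167 to 262 CPM in CD27+CD69+ libraries and 96.5 to 140 CPM in CD27+CD69- libraries. It rose by 0.79 (SE 0.17, adjusted p = 0.011) without overlap, the only call among 10 SLAM family genes. Of 11 nectin-binding and checkpoint receptors, 2 rose. Cd96, which binds the poliovirus receptor CD155, rose by 0.61 (adjusted p = 0.0423), and Lilr4b, an immunoglobulin-like receptor, rose by 1.33 (adjusted p = 0.0452). Both calls were fragile: Cd96 was lost without any of 7 single libraries (adjusted p up to 0.0839) and Lilr4b without any of 9 (up to 0.112). Crtam, an activation-induced receptor for nectin-like 2, had 101 to 158 CPM in CD27+CD69+ and 27.2 to 53.7 CPM in CD27+CD69- libraries. That difference of 1.69 (SE 0.55) had an adjusted p of 0.128 although the groups did not overlap, and it passed in limma-voom and in the fit to the 2 populations alone (0.00807 and 0.000156). Among 17 Fc receptor and ITAM signalling genes, Lcp2, the adaptor SLP-76, rose by 0.52 (adjusted p = 0.0315), and was lost without any of 5 single libraries (up to 0.0645). T cells also express Cd96, Crtam and Lcp2, and the T cell marker sum was above that of all CD27+CD69- libraries in 4 of 6 CD27+CD69+ libraries; their part in these values was not tested. None of the 17 NKG2 and NKR-P1 genes was called, and 7 had an unadjusted p under 0.05 (edgeR).

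Chemokines moved in opposite directions. Xcl1, which attracts XCR1+ dendritic cells, had 528 to 769 CPM in CD27+CD69+ libraries (median 703) and 150 to 383 CPM in CD27+CD69- libraries (median 340). It rose by 1.14 (SE 0.24, adjusted p = 0.007) without overlap, and did not pass without CD27+CD69- replicates 4 and 6 (adjusted p = 0.0713). Ccl3, which attracts leukocytes, had 13.7 to 86.9 CPM in CD27+CD69+ libraries and 120 to 421 CPM in CD27+CD69- libraries. Its fall of 2.23 (SE 0.34, adjusted p = 0.000381) left the groups apart, and both were below the means of 759 and 1606 CPM in CD11b+CD69+ and CD11b+CD69- cells. Of 8 chemokines tested, these 2 were called. Of 11 secreted cytokines none was called, and 1 had an unadjusted p under 0.05 (edgeR). Flt3l, the growth factor of dendritic cells named in the title of the study, had 38.5 to 75.7 CPM in CD27+CD69+ and 14.0 to 75.9 CPM in CD27+CD69- libraries (adjusted p = 0.659).

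The study is about IL-2 and IL-15 signalling. Il2rg, the γ chain shared by both receptors, had 799 to 930 CPM in CD27+CD69+ libraries and 372 to 735 CPM in CD27+CD69- libraries. It rose by 0.51 (SE 0.11, adjusted p = 0.0131) without overlap, and was the only call among 15 receptor, JAK and STAT genes, whose median was 0.25. It missed the threshold in the fit to the 2 populations alone (adjusted p = 0.0983) and without the libraries of all populations numbered 4 or 5 (0.0775 and 0.0724). Il2ra, the high-affinity α chain, had 14.2 to 39.7 CPM in CD27+CD69+ and 0 to 8.87 CPM in CD27+CD69- libraries. The groups did not overlap, but the difference of 2.86 (SE 1.02) was not called (adjusted p = 0.185); it passed in limma-voom and in the fit to the 2 populations alone (down to 0.0287). Il2rb had medians of 1512 and 1192 CPM in CD27+CD69+ and CD27+CD69- libraries (adjusted p = 0.885), and Il15ra had 65.2 and 49.1 CPM (adjusted p = 0.702).

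Of 24 STAT5 target genes, 3 rose and none fell, with a median of 0.36. Cish had 30.4 to 108 CPM in CD27+CD69+ and 24.7 to 40.4 CPM in CD27+CD69- libraries and rose by 1.10 (SE 0.25, adjusted p = 0.0157), but not without CD27+CD69- replicate 6 (adjusted p = 0.0505). Tnfrsf9, which encodes the co-stimulator 4-1BB, had 459 to 945 CPM in CD27+CD69+ and 270 to 508 CPM in CD27+CD69- libraries, a rise of 0.85 (SE 0.19, adjusted p = 0.0113). Myc, a transcription factor of growth, rose by 0.72 (SE 0.18, adjusted p = 0.0271), and was lost without any of 5 single libraries (adjusted p up to 0.076). None of 23 ribosome biogenesis genes that MYC is known to drive was called (edgeR; 5 had an unadjusted p under 0.05), and their median was 0.085. Tnfrsf1a, a receptor for TNF, had medians of 31.9 and 88.9 CPM in CD27+CD69+ and CD27+CD69- libraries and fell (adjusted p = 0.00793).

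Ms4a4c showed the smallest p of all genes. This member of the MS4A family of membrane proteins, which interferon is known to induce in mouse, had 267 to 467 CPM in CD27+CD69+ libraries (median 318). CD27+CD69- libraries had 51.1 to 123 CPM (median 91.5), so no library overlapped. The rise was 1.91 (SE 0.18, adjusted p = 7.31e-07). Its neighbour Ms4a4b rose by 0.41 (SE 0.09, adjusted p = 0.0142), with 3975 to 4433 CPM in CD27+CD69+ and 2166 to 3629 CPM in CD27+CD69- libraries. Of 41 type I interferon response genes, 34 had a positive difference and the median was 0.52, but 2 rose and 1 fell. Slfn8, a schlafen gene, rose by 1.06 (adjusted p = 0.0376) and Trim30a, a ubiquitin ligase, by 0.74 (adjusted p = 0.0416). Slfn8 was lost without any of 6 single libraries (adjusted p up to 0.092) and Trim30a without any of 9 (up to 0.109). Usp18, which restrains interferon receptor signalling, had 79.9 to 396 CPM in CD27+CD69+ and 55.2 to 106 CPM in CD27+CD69- libraries and missed the threshold (1.43, adjusted p = 0.054). It passed in DESeq2 and in the fit to the 2 populations alone (0.0146 and 0.0321), and without CD27+CD69+ replicate 1, 2 or 4 (0.036, 0.046 and 0.0221). Ifitm3, an antiviral membrane protein also abundant in stromal cells, had 0.907 to 123 CPM in CD27+CD69+ and 246 to 685 CPM in CD27+CD69- libraries and fell by 3.45 (SE 0.61, adjusted p = 0.00196).

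Genes of mature NK cells were lower where they were called. Of 19 tested, 3 fell and none rose, and the median was -0.47. The same list also fell with CD69 in CD11b+ cells, where 11 of the 19 were called lower, none higher, and the median was -1.24. Rasgrp2, a RAP1 activator that switches on integrins, had medians of 8.76 and 32.7 CPM in CD27+CD69+ and CD27+CD69- libraries, which met at 19.0 CPM, a fall of 1.76 (SE 0.33, adjusted p = 0.00235). Gzma was the second, and Emilin2, a matrix glycoprotein, the third, with 0 CPM in 4 of 6 CD27+CD69+ libraries and a median of 35.9 CPM in CD27+CD69- libraries (adjusted p = 0.0357). Emilin2 was lost without any of 7 single libraries (adjusted p up to 0.0654). Cma1, a chymase that mature NK cells of these tumours hold at 871 CPM in CD11b+CD69- libraries, had medians of 3.55 and 22.2 CPM in CD27+CD69+ and CD27+CD69- libraries (adjusted p = 0.0556). It passed in limma-voom (0.0355) and without CD27+CD69+ replicate 5 or 6 (0.00863 and 0.0244).

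Of 33 genes of immature NK cells and type 1 innate lymphoid cells, 2 rose, Rgs1 and Xcl1, and 26 were positive (median 0.37). In CD11b+ cells 12 of the 33 were called higher in CD69+ libraries and 1 lower, with a median of 0.97. Rgs1, which damps chemokine receptor signals and marks tissue-resident lymphocytes, had 2069 to 2756 CPM in CD27+CD69+ libraries and 1094 to 1786 CPM in CD27+CD69- libraries. Its rise of 0.76 (SE 0.15, adjusted p = 0.00381) was the only call among 17 genes of tissue exit and retention. S1pr1, the egress receptor that CD69 protein removes from the surface, had 17.8 to 126 CPM in CD27+CD69+ and 123 to 399 CPM in CD27+CD69- libraries. At -1.54 (SE 0.59) it was not called (adjusted p = 0.255), although limma-voom and the fit to the 2 populations alone passed it (0.00538 and 0.0432). Of 31 immediate early genes 2 fell and none rose. Egr1 had medians of 76.1 and 158 CPM in CD27+CD69+ and CD27+CD69- libraries (-1.22, adjusted p = 0.0297) and Nr4a1 had 160 and 253 CPM (-0.96, adjusted p = 0.0437). Nr4a1 was at 566 CPM in CD27+CD69- replicate 1, without which its adjusted p was 0.146, and 6 other single libraries also decided it; Egr1 was lost without any of 5 (up to 0.0891).

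Programs of growth and metabolism gave no call. Of 21 glycolysis and hypoxia genes, 20 had a negative difference and the median was -0.37, while in CD11b+ cells the median CD69 difference of the same genes was 0.47. None of 27 DNA replication and mitosis genes (median -0.21), 14 amino acid supply genes (-0.022), 24 NK transcription factors (-0.026) and 10 BCL2 family genes (-0.037) was called by edgeR. At an unadjusted p under 0.05 there were 8 glycolysis, 3 replication, 1 amino acid supply, 6 transcription factor and 1 BCL2 family genes. Over all 10536 genes tested there were 1154 (11%). A missed threshold does not show equal levels.

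**Figure D4:**
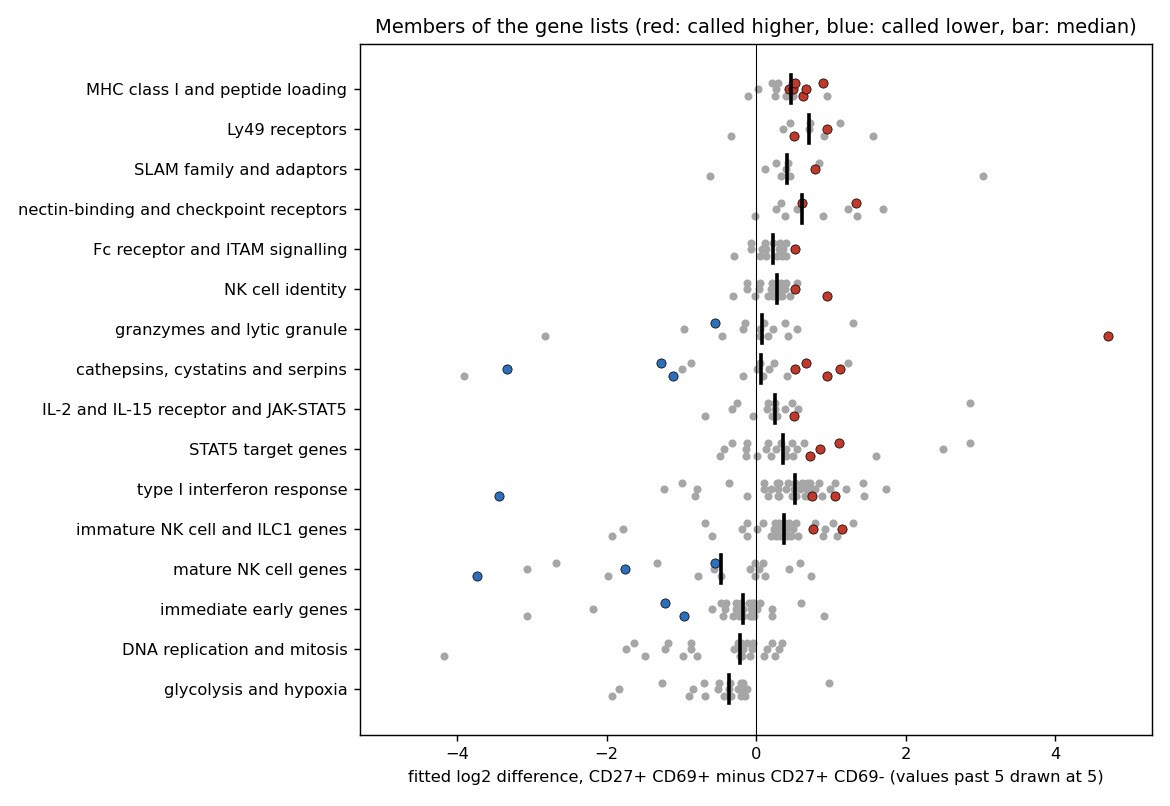
Each point is 1 tested gene of a list, placed by its log2 difference, CD27+CD69+ minus CD27+CD69- (values past 5 are drawn at 5), with called genes in red or blue and the median of each list as a bar. The medians run from 0.71 for Ly49 receptors to -0.47 for mature NK cell genes.

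Other rises belonged to none of these programs. Hopx, a homeodomain cofactor of effector lymphocytes, had 184 to 265 CPM in CD27+CD69+ libraries and 98.1 to 171 CPM in CD27+CD69- libraries, a rise of 0.82 (SE 0.14, adjusted p = 0.000819). Ncf4, the p40phox subunit of the phagocyte oxidase, had 356 to 415 CPM in CD27+CD69+ and 106 to 281 CPM in CD27+CD69- libraries and rose by 0.80 (SE 0.16, adjusted p = 0.00381). Actr2, a subunit of the actin-nucleating ARP2/3 complex, rose by 0.77 (SE 0.15, adjusted p = 0.0048), but not without CD27+CD69- replicates 4 and 6 (0.0599). Spin2c, of the spindlin family, had 40.1 to 76.1 CPM in CD27+CD69+ and 11.5 to 25.03 CPM in CD27+CD69- libraries (1.58, adjusted p = 0.00918). Gimap7, a GTPase of lymphocytes, rose by 0.75 (adjusted p = 0.0147). Phactr3, a phosphatase and actin regulator, rose by 1.19 (adjusted p = 0.0306), with CD27+CD69- replicate 2 at 87.4 CPM among the CD27+CD69+ values of 52.9 to 103 CPM. Without that library its adjusted p was 4.82e-05, and it was lost without any of 5 others (up to 0.0781).

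The 49 falls among CD11b-expressed genes were of mixed kind. In 41 of them the CD27+CD69- mean was above the mean of the CD11b+ libraries, in 20 by more than 2 times, and in 8 it was below. The 8 included Ccl3, Rasgrp2, Gzma and Nr4a1. Among the 41 were genes also common in connective tissue. Timp2, an inhibitor of matrix proteases, had 12.7 to 55.9 CPM in CD27+CD69+ libraries and 109 to 504 CPM in CD27+CD69- libraries, and fell by 3.01 (SE 0.36, adjusted p = 8.86e-06). Calu, a calcium-binding protein of the secretory pathway, had 161 to 255 CPM in CD27+CD69+ and 354 to 815 CPM in CD27+CD69- libraries and fell by 1.33 (SE 0.18, adjusted p = 6.29e-05). Ugdh, which makes the sugar precursor of glycosaminoglycans, fell by 2.51 (adjusted p = 0.000112), and Gng12, a G protein γ subunit, by 1.58 (adjusted p = 0.000501). Gpx8, a peroxidase of the endoplasmic reticulum, was at 0 CPM in 5 of 6 CD27+CD69+ libraries with 12.0 CPM in replicate 6, against 15.4 to 129 CPM in CD27+CD69- libraries. Nedd4, a ubiquitin ligase, had 44.6 to 114 CPM in CD27+CD69+ and 114 to 399 CPM in CD27+CD69- libraries (-1.63, adjusted p = 0.00242). Gstm1, a glutathione transferase, fell by 1.51 (adjusted p = 0.00101). The part of fibroblast RNA in these falls was not tested beyond the covariate given above.

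The CD69 difference was set against that of CD11b+ cells in the same fit. In CD11b+ cells 289 genes (2.74%) were called, 173 (1.64%) higher and 116 (1.1%) lower in CD69+ libraries. Of the 58 rises in CD27+ cells, 50 had a positive difference in CD11b+ cells and 23 were called higher there. Ms4a4c averaged 129 and 22.4 CPM in CD11b+CD69+ and CD11b+CD69- libraries, a rise of 2.52 (adjusted p = 5.41e-09), and Gzmc averaged 272 and 13.8 CPM, a rise of 4.29 (adjusted p = 0.00162). H2-T23, Psmb8, Xcl1 and Rgs1 were also called higher there. The difference of the 2 CD69 differences itself was called for 61 genes (0.579%), 25 (0.237%) with a more positive and 36 (0.342%) with a more negative value in CD27+ cells. Those 61 held 4 of the 58 rises and 8 of the 49 falls.

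Klra9 rose in CD27+ cells, while it averaged 720 and 1085 CPM in CD11b+CD69+ and CD11b+CD69- libraries (adjusted p of the difference between compartments = 0.0118). Slamf7 did likewise, with 242 and 336 CPM in CD11b+CD69+ and CD11b+CD69- libraries (0.0118). Hopx had 130 and 143 CPM there (0.0171). Ly6c2, a Ly6 antigen of mature lymphocytes, had medians of 1655 and 923 CPM in CD27+CD69+ and CD27+CD69- libraries and averaged 499 and 1152 CPM in CD11b+CD69+ and CD11b+CD69- libraries (0.0333). In CD27+CD69+ replicate 6, Ly6c2 was at 301 CPM, and without this library its rise in CD27+ cells passed (adjusted p = 0.00689). Ero1lb, an oxidase of the endoplasmic reticulum, had medians of 24.7 and 15.9 CPM in CD27+CD69+ and CD27+CD69- libraries and averaged 8.91 and 32.5 CPM in CD11b+CD69+ and CD11b+CD69- libraries (0.00452). Gatsl3 averaged 29.97 and 94.6 CPM in CD11b+CD69+ and CD11b+CD69- libraries, with medians of 41.6 and 33.9 CPM in CD27+CD69+ and CD27+CD69- libraries (0.0153). Tmem37 averaged 122 and 277 CPM in CD11b+CD69+ and CD11b+CD69- libraries, with medians of 78.4 and 80.6 CPM in CD27+CD69+ and CD27+CD69- libraries (0.0342).

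Interferon genes were called more often in CD11b+ cells. Of 41, 23 rose and none fell in CD69+ cells of the CD11b+ compartment, where the median was 1.74, against 2 rises and 1 fall in CD27+ cells, and 8 had differences that differed between compartments. Ifi44, an interferon-induced gene, had 23.8 to 91.9 CPM in CD27+CD69+ and 11.5 to 38.0 CPM in CD27+CD69- libraries, and averaged 75.1 CPM in CD11b+CD69+ libraries with 0 counts in CD11b+CD69- libraries (1.4e-05). Ifi211, of the Ifi200 family, had medians of 11.7 and 15.1 CPM in CD27+CD69+ and CD27+CD69- libraries and was also at 0 counts in CD11b+CD69- libraries (1.4e-05). Both transcripts were present in the CD27+CD69- libraries. Ifitm3 averaged 46.3 and 2.23 CPM in CD11b+CD69+ and CD11b+CD69- libraries, a rise, against its fall in CD27+ cells (0.000155). Calu and Nedd4, which fell in CD27+ cells, averaged 206 and 98.6 CPM in CD11b+CD69+ and 248 and 86.3 CPM in CD11b+CD69- libraries (0.0443 and 0.0412). The difference was also called for Anxa3, S100a16, Lama4 and Adgrd1, which had at most 0.963 CPM in any CD27+CD69+ library (0.0153, 0.00080, 0.00271 and 0.0107). All 4 were near the floor in CD11b+ cells too. They passed the filter on low counts mainly through CD27+CD69- libraries, which largely set the direction beforehand. Their values are therefore a description and no support for a difference between compartments in NK cells. Their CD11b+CD69+ medians were 0 CPM, with highest values of 8.64, 4.77, 11.3 and 7.46 CPM. In CD11b+CD69- libraries Anxa3 reached 8.85 CPM and the others were at 0.

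**Figure D5:**
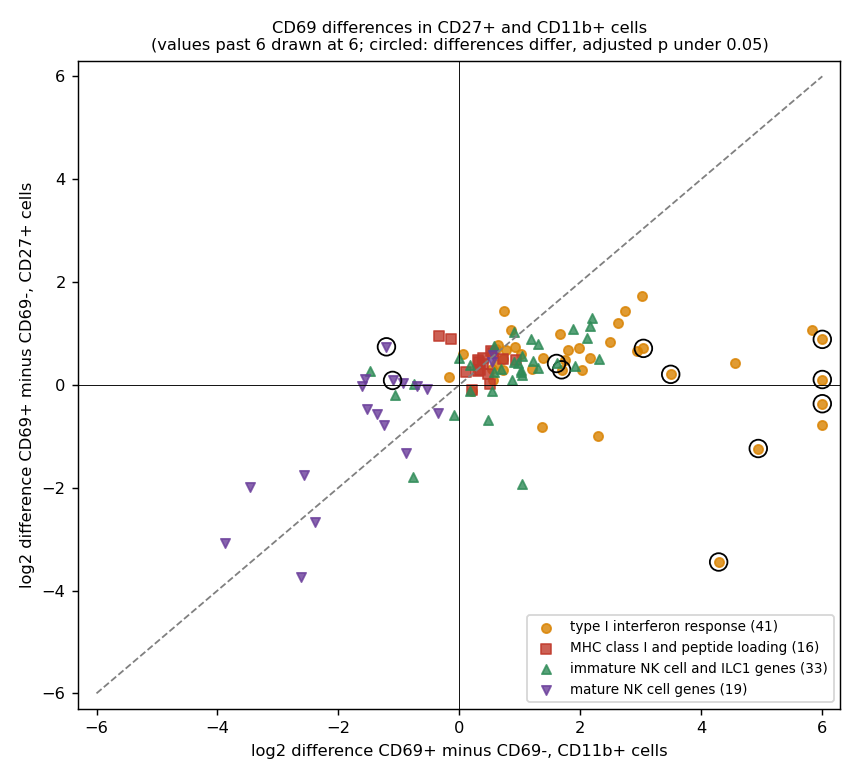
Each point is 1 gene, placed by its log2 CD69 difference (CD69+ minus CD69-) in CD11b+ cells and in CD27+ cells, in 4 gene lists (values past 6 are drawn at 6); circles mark genes whose 2 differences differ at an adjusted p under 0.05 and the dashed line marks equal values. Interferon genes spread to the right below the dashed line, and 8 of the 41 are circled.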

How the data were processed

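RNA was measured in 24 libraries of 4 populations, 6 each. Per the labels' protocols, 100 sorted cells per library were copied with SMART-Seq v4 and Nextera XT, which keep no strand and add no molecular identifiers, so floors cover counting error only. The authors deposited raw counts per gene, with no normalization. Per the submitters' processing notes, HTSeq, Picard and GRCm38 were used, with no versions; for the aligner, annotation and strand setting, sources used here give nothing. Genes with no symbol (3433) held 0.174% of counts. Total counts were between 1213914 and 2671533. Replicates differed by 10.3 to 32.3 times counting error (chi-square per degree of freedom, 60 pairs), so no library is a copy.

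Computed here: 10536 of 53465 genes passed filterByExpr (minimum count 10), TMM scaling, then 1 fit of 4 means to 24 libraries in edgeR 4.0.16 (R 4.3.3, robust quasi-likelihood), Benjamini-Hochberg over all genes, threshold 0.05. SE is the log2 difference over the square root of F. DESeq2 1.42.0 and limma-voom 3.58.1, other scalings, filters, fits and left-out libraries were alternatives. In simulated data edgeR recovered 33% of 100 genes changed by 1 on the log2 scale and 80% of 100 changed by 2. False calls were 0.877% of the calls in edgeR, 12.8% in DESeq2 and 0.98% in limma-voom. The simulation gave all populations the same mean and spread of each gene, save for changed genes of mean 10 CPM or more. It held no population with RNA of other cells, so these shares need not hold for the libraries here. Positions and overlaps came from GENCODE M21 for GRCm38; 62 of 207 named genes had exons that overlap another gene, among them Ms4a4c, Psmb8, Ctsw, Xcl1, Cish, Il2rg and Slamf7.

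Named were Cd69, Cd27, Itgam, Flt3l, Ncr1, Klrb1c and IL-2 and IL-15 receptor genes; of the 12 largest called changes each way, and the 20 among CD11b-expressed genes, those with a mean of 10 CPM that were detected in 5 of the 6 libraries where they were higher, with 5 of 6 past the opposite median; called list members and up to 4 others per list; and up to 6 genes each way for the difference between compartments. Clone-named genes and pseudogenes were excepted. The text gives a selection made after values were seen. The members and lists were chosen with earlier results of these data known.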

Additional observations from a re-analysis of the deposited data

Results flagged for a closer look

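Of 175 groups of 6 libraries examined for a single distant library (Dixon's ratio), 23 had one, where chance gives about 5%. The results below were chosen by that ratio or by a called difference between compartments, and their causes were not tested.

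Among the values examined, CD27+CD69+ replicate 6 stood apart most often in its population. The erythroid marker sum, which was high in CD27+CD69+ replicate 3, was not among them. The following values are those of replicate 6. Replicate 6 had 100.2 CPM of Ctsl (other libraries 7.62 to 33.2), 123 CPM of Ifitm3 (0.907 to 43.2) and 226 CPM of Sparc (0 to 16.0). Its melanoma marker sum was 1063 CPM (0.454 to 117). Gpx8 at 12.0 CPM, Col3a1 at 5.78 CPM and S100a16 at 0.963 CPM were detected there and at 0 in the other 5. Ly6c2 was low there, at 301 CPM (1621 to 1926). The CD27+CD69- library of the same number also had the highest melanoma and macrophage marker sums of its population, and the deviations of this pair correlated at 0.21 across genes. What the numbers 1 to 6 stand for is not given. In other CD27+CD69+ libraries, Gzmc reached 1172 CPM in replicate 2 (27.9 to 439), H2-K1 6983 CPM in replicate 3 (5610 to 6109) and Nlrc5 145 CPM in replicate 3 (61.2 to 90.7). Lama4 at 0.551 CPM in replicate 4 and Adgrd1 at 0.454 CPM in replicate 5 were at 0 in the other 5.

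CD27+CD69- replicate 6, the library with the fewest counts, was low in Cd69 at 380 CPM (733 to 917), Ctsw at 1108 CPM (1748 to 2041) and Ms4a4b at 2166 CPM (3144 to 3629). It was high in Ctsb at 2204 CPM (434 to 891), in melanoma markers at 11434 CPM (17.5 to 1749) and in macrophage and monocyte markers at 2507 CPM (456 to 917). Elsewhere in CD27+CD69-, Ctss was at 225 CPM in replicate 3 (138 to 165), Ccl3 at 421 CPM in replicate 2 (120 to 232), Nr4a1 at 566 CPM in replicate 1 (192 to 294) and Phactr3 at 87.4 CPM in replicate 2 (15.7 to 33.1).

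The CD69 difference was not the same in CD27+ and CD11b+ cells for 16 named genes by edgeR's quasi-likelihood test. The log2 difference was more positive in CD27+ cells for Klra9 (0.94 in CD27+ and -0.59 in CD11b+ cells, adjusted p = 0.0118), Slamf7 (0.79 and -0.47, 0.0118), Hopx (0.82 and -0.13, 0.0171), Ly6c2 (0.74 and -1.21, 0.0333), Ero1lb (0.77 and -1.86, 0.00452), Gatsl3 (0.41 and -1.66, 0.0153) and Tmem37 (0.15 and -1.19, 0.0342). It was more negative in CD27+ cells for Ifitm3 (-3.45 and 4.29, 0.000155), Calu (-1.33 and -0.26, 0.0443) and Nedd4 (-1.63 and 0.19, 0.0412). For Ifi44 (1.4e-05), Ifi211 (1.4e-05), S100a16 (0.00080), Anxa3 (0.0153), Lama4 (0.00271) and Adgrd1 (0.0107) the adjusted p of the same test alone is given. Their fitted values depend on libraries at or near 0, and the log2 difference was again more negative in CD27+ cells. S100a16, Anxa3, Lama4 and Adgrd1 passed the filter on low counts mainly through CD27+CD69- libraries. That largely set their direction beforehand, so these 4 results are a description.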

How the results depend on the processing

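The 195 calls among CD27+ cells became 293 in limma-voom, 405 with no filter on low counts and 98 without CD27+CD69- replicates 4 and 6. The 107 among CD11b-expressed genes became 189 in DESeq2, 65 with only the 2 populations in the fit and 44 without those replicates. With fibroblast level as a covariate both counts were 0 (edgeR; 374 and 293 genes had an unadjusted p under 0.05), and this level and the population cannot be told apart. The 289 calls in CD11b+ cells became 483 in DESeq2 and 188 with no filter, and the 61 of the difference between compartments became 169 in DESeq2 and 30 without CD27+CD69- replicates 4 and 6. Leaving out 1 library or 1 replicate number gave 106 to 393 calls among CD27+ cells, 50 to 154 among CD11b-expressed genes, 183 to 256 in CD11b+ cells and 17 to 51 for the difference. Other causes were not tested.

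Of the called genes with values in the text, 62 were examined, and Gpx3 was not among them. Besides the covariate there were 28 alternatives. Col1a2 and Adgrd1 had a value in 24 of these, Col3a1 in 26 and Tgfbr3 in 27. Of the 62 genes, 27 passed in every alternative that gave them a value, the covariate aside. These were 9 of the 33 called higher and 18 of the 29 called lower. With the covariate 59 of the 62 kept their sign. Signs turned without CD27+CD69- replicates 4 and 6 for Klrb1c (-0.10) and Il2rb (-0.075), and with the covariate for Il2rb (-0.12), Nlrc5 (-0.028), Col3a1 (0.77), Sparc (0.66), Ly6c2 (-0.028), Ifi44 (-0.36), Ifi211 (0.29) and Gatsl3 (-0.16). Leaving out single libraries or replicate numbers gave -0.057 to 0.13 for Klrb1c and -0.016 to 0.26 for Tmem37.

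Replicate numbers were not taken to pair libraries, because their meaning is not given. The titles run from M1 to M6, and each number holds all 4 populations. Of the 6 same-numbered CD27+ pairs only that of number 6 had a correlation of deviations over 0.1 (0.21, across genes). The median was 0.032 for the same number and -0.0088 for other numbers, and 4 of 12 libraries matched their own number best. These values do not decide whether the libraries are paired. With a replicate block 254 genes were called, 125 of them CD11b-expressed. Of the genes examined, the block added the calls of Cd69, H2-D1, Klra8 and Cma1 in edgeR (adjusted p = 0.0448, 0.0407, 0.0407 and 0.0322). It ended that of Lilr4b (0.0721) and changed no other gene that had a value. With the block in the fit to the 2 populations alone, 14 calls ended, and Crtam and S1pr1 were added (0.000932 and 0.00403).

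Single libraries decided 16 of the 62 called genes.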
